A study of Vitis vinifera with 36 samples.

Results

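Berries of the bud sport ‘Nantaihutezao’ at S8 were set against berries of its parent ‘Summer Black’ at S10, 2 samplings later. The members are 6 of the 36 RNA-Seq libraries of the series, chosen by their labels alone: 3 of ‘Nantaihutezao’ S8 and 3 of ‘Summer Black’ S10. ‘Nantaihutezao’ arose as a bud sport of ‘Summer Black’, that is from a somatic mutation in a shoot, and it is described as the earlier-ripening cultivar. The comparison therefore asks which transcripts still differed when the bud sport was set against the parent at a later sampling. The labels call the bud sport 11-06-25 and the parent Sanbenti, and the cultivar names used here were matched to them by their roles as bud sport and parent.

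‘Nantaihutezao’ S8 was sampled 21 days after veraison, and ‘Summer Black’ S10 was sampled at what the labels call maturity. Veraison (S5) is the onset of ripening, when berries soften, colour and gain sugar. Samples were taken every 7 days, so that the groups lie 14 days apart on that schedule, and whether veraison was dated separately in each cultivar is not given in the sources used here. Both cultivars were untreated 3-year-old vines in the same plastic film greenhouse, and the berries of a sampling came from a pair of clusters. The bud sport is the descent of 1 mutated shoot, so that it stands for 1 clone. By the labels the organ was the berry, while the methods name the pericarp.

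Ripening grape berries turn phenylalanine into stilbenes such as resveratrol and into flavonoids. Phenylalanine ammonia-lyase (PAL), cinnamate 4-hydroxylase (C4H) and 4-coumarate:CoA ligase (4CL) make p-coumaroyl-CoA, and stilbene synthase (STS) and chalcone synthase (CHS) draw on that same compound. Ripe berries are also known for aroma terpenes, for cell walls loosened by expansins and pectin enzymes, and for large amounts of thaumatin-like proteins and chitinases.

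The deposited table held 27751 genes, of which 15216 had enough counts to be tested. The 6 libraries held between 18920112 and 19879707 counts, in a series that ranged from 15323095 to 20469617. In all 36 the most similar library belonged to the same group, and the replicates differed by more than sampling noise, so each was counted as 1 sample. Replicate 3 of ‘Summer Black’ S10 was the most distant of the 6, with a chi-square per degree of freedom of 11.3 and 7.46 from its replicates, against 3.92 to 4.91 for the other pairs. Without it 330 genes were higher and 347 lower, against 316 and 382 with all 6 libraries. Levels are given in CPM, that is counts scaled by TMM to one library size. Differentially expressed genes had a fold change past 2 in either direction and a false discovery rate (FDR), by Benjamini-Hochberg over all genes tested, under 0.05 in the quasi-likelihood test of edgeR. Every fold change is ‘Nantaihutezao’ S8 over ‘Summer Black’ S10 unless another pair is named. In RNA from whole tissue, fewer cells of a type and less RNA per cell cannot be told apart.

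‘Nantaihutezao’ S8 differed from ‘Summer Black’ S10 in 698 genes, 4.59% of those tested. Of these, 316 were higher (2.08%) and 382 were lower (2.51%). The 3 libraries of each group did not overlap in 309 of the 316 higher genes and in 366 of the 382 lower genes. These genes were called on the same 6 libraries, so little overlap follows largely from the call. The count was not taken over all genes tested. Most differences were modest, with a median fold of 2.6 among the higher genes and 2.45 among the lower ones. Past 4-fold there were 60 higher and 50 lower genes, and past 8-fold there were 18 and 12. Without the fold threshold, 3035 genes (19.9%) were higher and 3150 (20.7%) lower at an FDR under 0.05, and the median log2 fold change over all genes tested was 0.00. In the test against a fold change of 2 itself, 96 genes were higher and 64 lower.

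The largest called difference in the lower direction rested on 1 library. UBQ14 (VIT_19s0177g00070), annotated as a polyubiquitin, had 0.268, 0 and 0.641 CPM in ‘Nantaihutezao’ S8, against 38.1, 0.0539 and 0.539 CPM in ‘Summer Black’ S10. Its groups overlapped, and its log2 fold change of -5.38 became 0.03 without replicate 1 of ‘Summer Black’ S10. The largest in the other direction was an EIN3-annotated gene (VIT_06s0009g01380), a transcription factor type of the ethylene response. It had 2.14, 0.855 and 2.24 CPM in ‘Nantaihutezao’ S8 and was at 0 in all 3 libraries of ‘Summer Black’ S10, which makes it at least 32.4-fold higher, taking 3 counts over the group as the floor. ‘Summer Black’ carried it at every earlier stage, with means between 0.862 CPM at S9 and 4.28 CPM at S6.

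The same ‘Nantaihutezao’ S8 libraries were also tested against each earlier ‘Summer Black’ stage, and the counts are set side by side without a test because all of them share those libraries. Against S5, 4965 genes were called (31%). The number was 2739 (17.6%) against S6, 2075 (13.4%) against S7 and 986 (6.46%) against S8, the same sampling. It was 592 (3.9%) against S9 and 698 against S10. The order of the last pair depended on the model: with all 36 libraries in 1 fit it was 885 against S9 and 776 against S10. The make-up differed too, with 403 higher and 189 lower genes against S9 but 316 higher and 382 lower against S10.

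**Figure D1:**
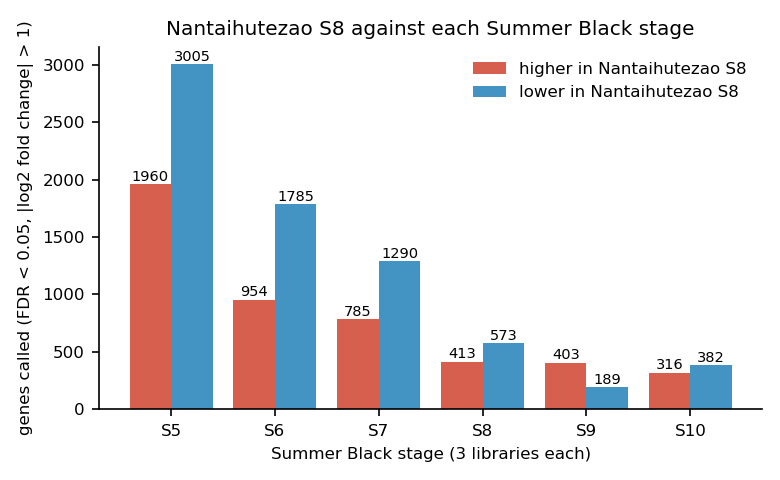
Genes called higher (red) and lower (blue) in ‘Nantaihutezao’ S8 against each ‘Summer Black’ stage; the x axis is the ‘Summer Black’ stage with 3 libraries each and the y axis the number of genes called. The counts are 1960 higher and 3005 lower against S5, and 316 higher and 382 lower against S10.

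To sort what still differed at S10, each called gene was placed in the whole course of ‘Summer Black’, all 18 libraries from S5 to S10. In 89 of the 316 higher genes (28.2%) all 3 ‘Nantaihutezao’ S8 libraries lay above every ‘Summer Black’ library, and in 75 of the 382 lower genes (19.6%) all 3 lay below. Over all genes tested the shares were 3.7% above and 3.15% below, but a called gene starts out beyond the S10 libraries, so these shares are a description. Of the other 534 called genes, 118 had 1 or 2 ‘Nantaihutezao’ S8 libraries beyond the ‘Summer Black’ range, and the rest had all 3 within it. By the ‘Summer Black’ stage mean nearest to ‘Nantaihutezao’ S8, 24.7% of the higher genes were nearest to S8 and 21.8% to S9. A further 17.1% were nearest to S7, and 13.3% each to S5 and to S10. Of the lower genes, 36.6% were nearest to S9, 18.1% to S8 and 4.97% to S10. Over all genes tested, S10 was the nearest stage most often, at 26.3%, followed by S9 at 23.9%. Called genes were picked for differing from S10, so their low shares at S10 follow largely from the call and are a description too.

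The genes outside the parent's course with the highest fold changes were nearly silent in ‘Summer Black’ at every stage. A CYP82C4-annotated gene (VIT_09s0002g09270), a cytochrome P450, had 14.3, 16.0 and 19.4 CPM in ‘Nantaihutezao’ S8, against 1.03, 1.19 and 0.755 CPM in ‘Summer Black’ S10. The groups did not overlap, and the log2 fold change was 4.06 (SE 0.19, edgeR FDR 1.84e-10). In ‘Nantaihutezao’ its mean went on to 45.9 CPM at S9 and 130.4 CPM at S10, while no ‘Summer Black’ library passed 1.19 CPM. A gene annotated as glutamate receptor 2.8 (VIT_10s0003g00680), of a family of ligand-gated ion channels, had 2.63, 2.94 and 2.67 CPM in ‘Nantaihutezao’ S8, against 0.162, 0.108 and 0.162 CPM in ‘Summer Black’ S10 (log2 fold change 4.19). The metal transporter Nramp5-annotated gene VIT_18s0001g02140 had 4.66, 3.42 and 3.10 CPM, against 0.270, 0.647 and 0.216 CPM (log2 fold change 3.28). An acidic endochitinase (VIT_15s0046g01600), an enzyme that cuts chitin, was at 5.63, 6.52 and 5.4 CPM in ‘Nantaihutezao’ S8, against 0.324, 1.19 and 0.539 CPM in ‘Summer Black’ S10 (3.09). In all 4 genes every ‘Nantaihutezao’ S8 library was above the highest of the 18 ‘Summer Black’ libraries.

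On the other side, several genes were lower in ‘Nantaihutezao’ S8 than ‘Summer Black’ had them at any stage. A GDSL esterase/lipase gene (VIT_09s0002g00530), of a family of lipid-cleaving enzymes, had 0.107, 0.0534 and 0.0534 CPM in ‘Nantaihutezao’ S8, against 1.35, 1.13 and 1.29 CPM in ‘Summer Black’ S10 (log2 fold change -4.02). Another gene of the same annotation, VIT_09s0002g00570, had 74.4, 78.9 and 80.2 CPM against 171.8, 150.3 and 151.1 CPM (-1.02), and lost its call without replicate 1 of ‘Nantaihutezao’ S8 (-0.99) or replicate 1 of ‘Summer Black’ S10 (-0.95). A zeatin O-glucosyltransferase (VIT_08s0007g08910), which stores cytokinin as a glucoside, was at 0.161, 0.214 and 0.214 CPM in ‘Nantaihutezao’ S8, against 1.62, 1.73 and 1.62 CPM in ‘Summer Black’ S10 (-3.03). IAA27 (VIT_09s0002g04080), a repressor type of the auxin response, was at 0.214, 0.107 and 0.267 CPM, against 1.03, 1.83 and 1.35 CPM (-2.80). Apart from VIT_09s0002g00570, these are low levels that rest on few counts per library. With 3 libraries against 3, a 2-sided exact permutation test on 1 gene gives p = 0.1 at the smallest, and edgeR's calls draw on the spread over all genes.

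**Figure D2:**
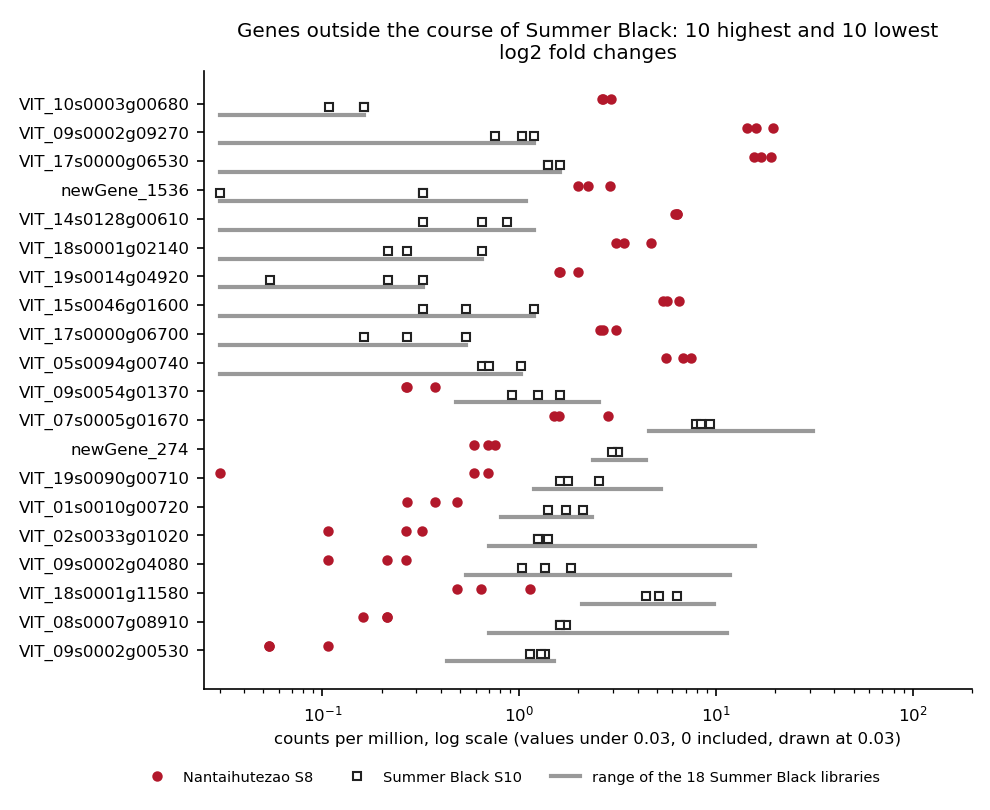
Levels of the 20 genes outside the ‘Summer Black’ course with the 10 highest and 10 lowest log2 fold changes (rows), in CPM on a log axis; red circles are the 3 ‘Nantaihutezao’ S8 libraries, open squares the 3 ‘Summer Black’ S10 libraries, and grey lines the range of all 18 ‘Summer Black’ libraries, with values under 0.03 CPM drawn at 0.03. In each row the red circles lie beyond the end of the grey line.

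Whether the same genes differed in other libraries was read from 5 comparisons between the cultivars that share no library with the 6, although some of them share libraries with each other. ‘Nantaihutezao’ S7 against ‘Summer Black’ S9 has the same shift of 2 samplings. There, 175 of the 291 higher genes tested in both (60.1%) were called higher again and 1 was called lower, where 3.67% of all genes were called higher. Of 326 lower genes, 85 (26.1%) were called lower again and 6 higher, where 1.73% of all genes were called lower.

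At equal samplings, genes called the same way were again more frequent than among all genes. For the higher genes the share was 34.7% at S5 (all genes 7.44%), 20.9% at S6 (2.7%), 27.2% at S7 (3.5%) and 38.6% at S9 (3.19%). For the lower genes it was 35.8% at S5 (all genes 5.75%), 20.9% at S6 (2.54%), 33.0% at S7 (3.29%) and 19.7% at S9 (1.84%). Genes called the other way made up 16.4% of the higher genes at S5 and 12.9% of the lower genes at S9, and less elsewhere. Of all called genes, 42 higher and 103 lower ones were called in neither direction in any of the 5 comparisons. A gene not tested in a comparison counted as not called there.

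**Figure D3:**
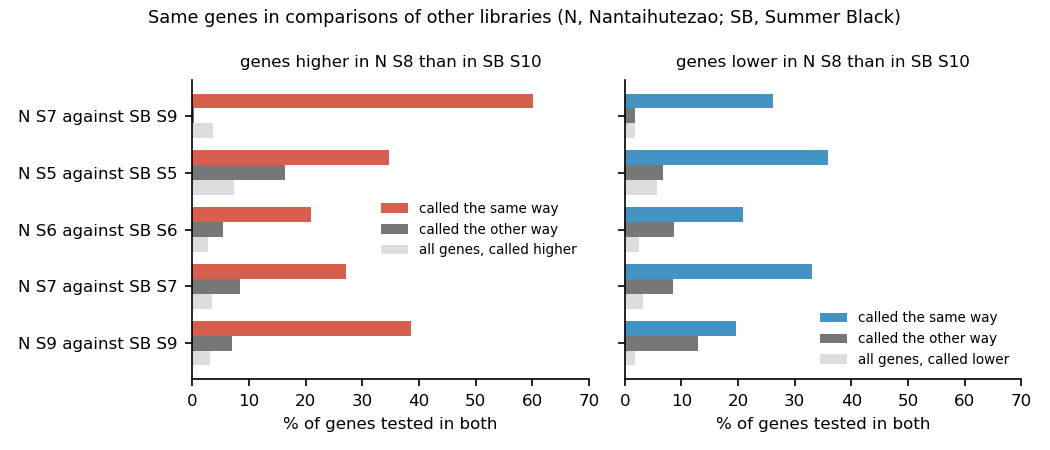
Shares, in percent of genes tested in both, of the higher (left) and lower (right) genes that were called the same way (coloured) or the other way (dark grey) in 5 comparisons that use other libraries, beside the share of all genes called in that direction (light grey). The longest bar is 60.1% for the higher genes in ‘Nantaihutezao’ S7 against ‘Summer Black’ S9.

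Across all 5 of these comparisons, 11 genes were called higher each time and 7 lower each time. A MYB gene annotated MYB305 (VIT_14s0066g01090), of the family of plant regulators that control many secondary metabolites, had 38.5, 41.7 and 36.6 CPM in ‘Nantaihutezao’ S8, against 7.28, 6.58 and 7.77 CPM in ‘Summer Black’ S10. Its log2 fold change was 2.43 (SE 0.09, edgeR FDR 8.74e-12), and in the other comparisons it lay between 2.33 and 5.74. A DOF3.5-annotated zinc finger gene (VIT_18s0001g15730) had 7.23, 8.39 and 9.40 CPM, against 0.863, 1.35 and 1.19 CPM (2.87), and a MATE efflux gene (VIT_16s0100g00460), of a family of membrane exporters, had 4.72, 2.67 and 4.06 CPM, against 0.809, 0.216 and 0.431 CPM (2.96). The methyltransferase gene annotated XMT1 (VIT_12s0057g01070) was tightly replicated, at 60.1, 60.7 and 60.5 CPM in ‘Nantaihutezao’ S8, against 15.1, 13.1 and 14.9 CPM in ‘Summer Black’ S10 (2.07). VIT_12s0028g00670, without a functional annotation, had 17.1, 20 and 18.2 CPM, against 2.54, 2.97 and 2.80 CPM (2.73). All 5 of these genes lay above every ‘Summer Black’ library.

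Among the 7 genes lower each time was a cytochrome P450 annotated CYP82A3 (VIT_18s0001g11580), with 1.13, 0.481 and 0.641 CPM in ‘Nantaihutezao’ S8, against 6.37, 5.12 and 4.42 CPM in ‘Summer Black’ S10 (log2 fold change -2.81). A glycine-rich cell wall protein gene (VIT_07s0005g01670) had 1.5, 1.6 and 2.83 CPM, against 9.33, 7.88 and 8.36 CPM (-2.10). Both lay below all 18 ‘Summer Black’ libraries. The gene newGene_274 (Vitis_vinifera_newGene_274), found by the authors outside the annotation, was at 0.750, 0.695 and 0.588 CPM in ‘Nantaihutezao’ S8 and at 3.18, 3.18 and 2.97 CPM in ‘Summer Black’ S10 (-2.19).

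Of the stilbene pathway, all 27 STS transcripts named by the study were tested and all had a negative log2 fold change, between -1.29 and -0.13 with a median of -0.70. Only 2 of them passed the call (7.41%, all genes 4.59%), and 22 were lower at an FDR under 0.05 without the fold threshold. A stilbene synthase 4 gene (VIT_16s0100g00860) had 9.75, 10.3 and 11.7 CPM in ‘Nantaihutezao’ S8, against 22.3, 22.8 and 22.9 CPM in ‘Summer Black’ S10 (-1.10, SE 0.09, edgeR FDR 8.39e-08). The other, a stilbene synthase 6 gene (VIT_10s0042g00850), had 2.14, 2.35 and 2.51 CPM, against 6.10, 6.42 and 4.64 CPM (-1.29, SE 0.19). Neither group overlapped the other in these genes. STS copies are nearly identical, so that reads could be split among them and the value of a single copy is uncertain.

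The sign was the opposite in the comparisons of other libraries, apart from 1 transcript at S5 (VIT_10s0042g00930, -0.05). In ‘Nantaihutezao’ S7 against ‘Summer Black’ S9, which has the same shift, all 27 STS transcripts had a positive log2 fold change, between 0.02 and 1.43 with a median of 0.88, and 10 were called higher. At equal samplings 20 of 27 were called higher at S5, 25 at S6, 27 at S7 and 25 at S9, and none was called lower in any of the 5 comparisons by edgeR.

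The 2 STS genes called lower here were called higher in ‘Nantaihutezao’ at S6, S7 and S9 and were not called at S5 or in the shifted comparison. For VIT_16s0100g00860 the log2 fold change was 1.41 at S6, 2.49 at S7 and 1.96 at S9, and its mean in ‘Summer Black’ was 2.32 CPM at S8 and 6.07 CPM at S9. For VIT_10s0042g00850 it was 1.74 at S6, 3.30 at S7 and 1.35 at S9. Of the 7 transcripts annotated as flavonoid 3',5'-hydroxylase (F3'5'H) that were tested, which direct flavonoids toward blue-purple pigments, VIT_06s0009g02810 was lower, at 6.00, 5.61 and 7.43 CPM in ‘Nantaihutezao’ S8 against 21.0, 19.1 and 19.0 CPM in ‘Summer Black’ S10 (-1.63). It was the only 1 of the 7 called (14.3%, all genes 4.59%), and the median of the 7 was -0.83. A further F3'5'H was called without replicate 3 of either group, which made 2 of them.

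Upstream, 3 of the 12 PAL transcripts named by the study were lower (25.0%, all genes 4.59%) and the median log2 fold change was -0.75. The call was at its edge: VIT_16s0039g01170 had 10.1, 9.3 and 12 CPM in ‘Nantaihutezao’ S8, against 22.2, 23.3 and 17.5 CPM in ‘Summer Black’ S10 (-1.0). It lost its call without replicate 1 (-0.98) or replicate 2 (-0.92) of ‘Nantaihutezao’ S8, or replicate 1 (-0.96) or replicate 2 (-0.92) of ‘Summer Black’ S10. Only 1 of the 12 was called without replicate 1 of ‘Nantaihutezao’ S8, replicate 1 of ‘Summer Black’ S10 or replicate 2 of ‘Summer Black’ S10. In ‘Nantaihutezao’ S7 against ‘Summer Black’ S9 all 11 PAL transcripts tested had a positive log2 fold change, with a median of 0.89, and none was called by edgeR. In the PAL gene VIT_13s0019g04460 the values ran the other way, 263.7, 246.3 and 263.3 CPM against 182.0, 183.1 and 184.8 CPM (0.49), without passing the fold threshold. None of 3 C4H, 3 4CL and 3 CHS transcripts was called. CHS VIT_05s0136g00260 had 5413, 5133 and 5677 CPM in ‘Nantaihutezao’ S8, against 4948, 4638 and 4912 CPM in ‘Summer Black’ S10 (0.16), below the fold threshold.

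Stilbenes are further changed by resveratrol O-methyltransferase (ROMT), which makes pterostilbene, and genes with that annotation were singled out after their values were seen. The table names 25 of them and 4 were tested, of which 3 were lower (75.0%, all genes 4.59%). VIT_12s0028g02810 had 4.88, 5.02 and 4.17 CPM in ‘Nantaihutezao’ S8, against 43.8, 45.9 and 43.3 CPM in ‘Summer Black’ S10 (-3.24, SE 0.09, edgeR FDR 4.84e-13). VIT_12s0028g01940 had 2.20, 4.01 and 3.74 CPM, against 27.5, 30.1 and 23.9 CPM (-3.03), and VIT_12s0028g02830 had 0.911, 1.07 and 0.962 CPM, against 8.90, 8.90 and 6.96 CPM (-3.06). The first and second of these were also lower in all 5 comparisons of other libraries. Another annotation column names other methyltransferases for 2 of these genes, so that their substrate is not settled by the files. Another methyltransferase type, caffeoyl-CoA O-methyltransferase (VIT_07s0031g00350) of the lignin branch, was higher, at 286.0, 301.2 and 307.3 CPM in ‘Nantaihutezao’ S8 against 103.9, 107.1 and 104.7 CPM in ‘Summer Black’ S10 (1.5).

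Terpene synthases, which make aroma compounds and hormone precursors, had 5 higher and 3 lower genes of 15 tested (53.3%, all genes 4.59%). Their median log2 fold change was 0.48. Without replicate 2 or replicate 3 of ‘Summer Black’ S10 only 1 was lower. The germacrene D synthase gene VIT_19s0014g04930, for a sesquiterpene, had 111.0, 126.5 and 118.6 CPM in ‘Nantaihutezao’ S8, against 18, 19.3 and 16.5 CPM in ‘Summer Black’ S10 (2.73, SE 0.07, edgeR FDR 2.92e-13). TPS12-annotated VIT_12s0134g00030 had 91.4, 91.7 and 91.1 CPM, against 15.4, 15.6 and 15.2 CPM (2.57). Both were above every ‘Summer Black’ library, and in ‘Nantaihutezao’ S10 their means were 501.8 and 629.6 CPM. The ent-copalyl diphosphate synthase gene VIT_07s0151g01070, of the gibberellin route, was at 0.0536, 0.107 and 0 CPM in ‘Nantaihutezao’ S8 and at 1.56, 2.32 and 2.21 CPM in ‘Summer Black’ S10 (-5.08). That gene had a mean of 14.0 CPM in ‘Nantaihutezao’ S10, so that its low level at S8 did not last. Carotenoid genes had 1 higher and 2 lower of 25 tested, with a median of 0.19. At an FDR under 0.05 without the fold threshold, 8 were higher and 5 lower. Only 1 was called lower when any 1 library other than replicate 2 of ‘Nantaihutezao’ S8 was left out. The lowest was phytoene synthase PSY1 (VIT_04s0079g00680), which makes the first carotenoid. It had 3.64, 4.01 and 3.42 CPM against 9.77, 8.95 and 10.1 CPM (-1.38), below all ‘Summer Black’ libraries.

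**Figure D4:**
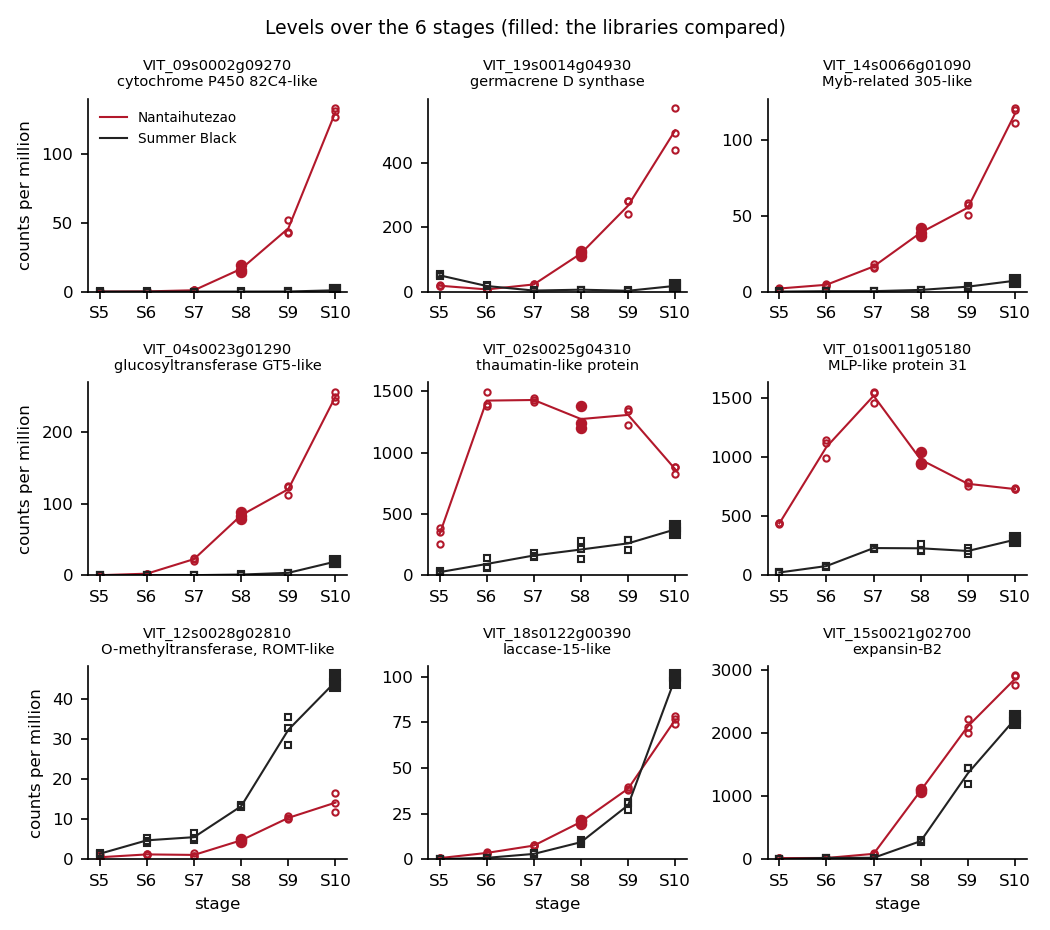
Levels of 9 genes named in the text over S5 to S10 in ‘Nantaihutezao’ (red) and ‘Summer Black’ (black); the y axis is CPM, points are libraries, lines join the means of 3 libraries, and filled points are ‘Nantaihutezao’ S8 and ‘Summer Black’ S10. The germacrene D synthase gene reached a mean of 501.8 CPM in ‘Nantaihutezao’ S10, and the expansin-B2 gene climbed in both cultivars.

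Several abundant transcripts of defence type were higher in ‘Nantaihutezao’ S8. The thaumatin-like protein genes VIT_02s0025g04310 and VIT_02s0025g04330, of a family that accumulates in ripe grapes, had 1237, 1200.2 and 1382 CPM and 1190, 1098 and 1161 CPM in ‘Nantaihutezao’ S8. In ‘Summer Black’ S10 they had 343.5, 401.5 and 378.6 CPM and 355.0, 368.9 and 391.1 CPM (1.77 and 1.63). A glucan endo-1,3-beta-glucosidase gene (VIT_05s0077g01150), an enzyme that cuts glucans of fungal walls, had 2532, 2365 and 2683 CPM, against 958.3, 976.8 and 986.0 CPM (1.38). The MLP-like protein 31 gene (VIT_01s0011g05180), of the Bet v 1 family, had 944.9, 1042 and 953.8 CPM, against 316.1, 299.2 and 291.8 CPM (1.70, SE 0.05). In these 4 genes every ‘Nantaihutezao’ S8 library was above all 18 ‘Summer Black’ libraries.

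As a list, thaumatins and chitinases had 5 higher and 2 lower genes of 30 tested (23.3%, all genes 4.59%), with a median of 0.24. Of these 7, 4 lay outside the parent's course, where 164 of all 698 called genes did (23.5%). An acidic endochitinase gene (VIT_15s0046g01570) was lower, at 5.47, 4.92 and 5.29 CPM in ‘Nantaihutezao’ S8 against 16.2, 14.0 and 14.8 CPM in ‘Summer Black’ S10 (-1.52), so the family did not move one way. The Bet v 1 family had 3 higher and 1 lower of 12 (33.3%, all genes 4.59%), with a median of -0.26. None was lower without replicate 3 of ‘Nantaihutezao’ S8. Without replicate 2 of ‘Summer Black’ S10 there were 2 higher and none lower. A non-specific lipid-transfer protein gene (VIT_08s0058g01210), named here after its values were seen, had 1032, 1195 and 1112 CPM, against 165.7, 145.3 and 148.5 CPM (2.86). No ‘Summer Black’ library passed 175.4 CPM in that gene.

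Genes of the cell wall were called in both directions. Of 43 pectin-acting enzymes, which cut or de-esterify the pectin between cells, 7 were higher and 2 lower (20.9%, all genes 4.59%). Their median log2 fold change was 0.23. Pectinesterase 2 (VIT_11s0016g00480) had 101.4, 104.7 and 109.8 CPM in ‘Nantaihutezao’ S8, against 42.9, 45.5 and 47.5 CPM in ‘Summer Black’ S10 (1.22), while a probable polygalacturonase (VIT_02s0025g00260) had 1.39, 1.60 and 1.34 CPM, against 10.9, 10.5 and 12.5 CPM (-2.96). That polygalacturonase was a late gene in both cultivars, with means of 28.4 CPM in ‘Nantaihutezao’ S10 and 4.19 CPM in ‘Summer Black’ S9. Of 10 expansins, which loosen walls, 2 were higher and 1 lower, with a median of 0.13. That median rested on the filter, since it was -0.49 over the 23 expansins tested by DESeq2 or with no filter, and 3 were lower with all 36 libraries in 1 fit. Expansin-B2 (VIT_15s0021g02700) had 1097, 1056 and 1110 CPM (-1.03), against 2243, 2159 and 2262 CPM in ‘Summer Black’ S10. Expansin-A15 (VIT_17s0053g00990) had 542.9, 548.8 and 532.8 CPM, against 241.9, 250.6 and 251.3 CPM (1.13).

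In ‘Summer Black’ the mean of expansin-B2 was 285.1 CPM at S8 and 1361 CPM at S9, so that the level of ‘Nantaihutezao’ S8 lay between these stages. Of 22 xyloglucan enzymes, which cut and rejoin the xyloglucan that ties cellulose, 3 were higher and none lower (13.6%, all genes 4.59%). There was 1 lower without replicate 1 or replicate 2 of ‘Nantaihutezao’ S8 or replicate 1 or replicate 3 of ‘Summer Black’ S10. The gene annotated as xyloglucan endotransglucosylase/hydrolase protein 7 (VIT_00s0386g00050) had 24.6, 25.9 and 27.0 CPM in ‘Nantaihutezao’ S8, against 3.83, 2.80 and 2.91 CPM in ‘Summer Black’ S10 (3.02). ‘Summer Black’ had this gene at a mean of 63.8 CPM at S5 and 18.1 CPM at S7. None of 25 cellulose synthase genes was called by edgeR, and 5 were higher and 6 lower at an FDR under 0.05 without the fold threshold. Without replicate 2 of ‘Nantaihutezao’ S8, 1 was called higher.

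Laccases, oxidases of lignin and other phenolics, had 1 higher and 3 lower genes of 8 tested (50.0%, all genes 4.59%). Their median was -0.02. Laccase-15 (VIT_18s0122g00390) had 21.4, 20.8 and 19.0 CPM in ‘Nantaihutezao’ S8, against 100.8, 96.9 and 100.5 CPM in ‘Summer Black’ S10 (-2.28, SE 0.06, edgeR FDR 2.92e-13). Its mean was 9.29 CPM in ‘Summer Black’ S8 and 29.6 CPM in ‘Summer Black’ S9, so the bud sport was again between these stages. A laccase-14 gene (VIT_18s0164g00100) had 9.22, 9.89 and 9.78 CPM, against 43.5, 38.7 and 38.3 CPM (-2.06).

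UDP-glycosyltransferases, which attach sugars to small molecules, had 2 higher and 10 lower genes of 74 tested (16.2%, all genes 4.59%). Their median log2 fold change was -0.26. The first of the higher genes was VIT_04s0023g01290, annotated as anthocyanidin 3-O-glucosyltransferase 5, with 83.1, 79.3 and 89.0 CPM in ‘Nantaihutezao’ S8 against 19.1, 20 and 18.6 CPM in ‘Summer Black’ S10 (2.12, SE 0.06). It lay above every ‘Summer Black’ library. The other was VIT_06s0004g06370, annotated as UGT71C4, at 20.8, 17.7 and 20.9 CPM against 7.01, 8.15 and 8.25 CPM (1.34). The lower genes included the pair of zeatin O-glucosyltransferases VIT_08s0007g08910 and VIT_08s0007g08920, whose log2 fold changes were -3.03 and -3.91. Glutathione S-transferases, which conjugate and carry phenolics, had 5 lower and no higher genes of 61 (8.2%, all genes 4.59%), with a median of -0.07. This count was not stable: it was 1 higher and 1 lower without replicate 1 of ‘Nantaihutezao’ S8, 3 lower without its replicate 2, 2 lower without replicate 1 of ‘Summer Black’ S10, and 1 higher and 2 lower without replicate 3 of ‘Summer Black’ S10.

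Regulators of stress responses were called in the lower direction. WRKY factors, known for their part in defence and senescence, had 6 lower and no higher genes of 42 tested (14.3%, all genes 4.59%). Their median log2 fold change was -0.34. A single higher gene appeared without replicate 1 of ‘Summer Black’ S10. WRKY53-annotated VIT_15s0046g01140 had 22.6, 22.9 and 24.8 CPM in ‘Nantaihutezao’ S8, against 58.3, 49.2 and 54.4 CPM in ‘Summer Black’ S10 (-1.20, edgeR FDR 3.40e-09). AP2/ERF factors, many of which act in ethylene and drought responses, had 10 lower and no higher genes of 61 (16.4%, all genes 4.59%). Their median was -0.19. ABR1 (VIT_07s0031g01980) had 16.5, 18.4 and 24.6 CPM, against 56.1, 50.2 and 50.5 CPM (-1.40), and lay below every ‘Summer Black’ library. ERF 1A (VIT_02s0234g00130) had 38.5, 39.6 and 41.6 CPM, against 78.7, 82 and 85.7 CPM (-1.04).

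The KEGG list of plant-pathogen interaction had 12 lower and no higher genes of 131 tested (9.16%, all genes 4.59%), with a median of -0.19. Without replicate 2 of ‘Nantaihutezao’ S8 or replicate 1 of ‘Summer Black’ S10 it had 2 higher and 9 lower ones. Its members included RBOHD (VIT_01s0150g00450), an oxidase that makes superoxide, at 8.47, 6.68 and 9.35 CPM in ‘Nantaihutezao’ S8 against 16.8, 15.2 and 20.7 CPM in ‘Summer Black’ S10 (-1.10). It lost its call without replicate 2 of ‘Nantaihutezao’ S8 (-0.98) or replicate 3 of ‘Summer Black’ S10 (-0.96). WRKY33 (VIT_08s0058g00690, -1.02), a regulator of defence genes, lost its call without replicate 1 (-0.99) or replicate 2 (-0.97) of ‘Nantaihutezao’ S8. A gene for a basic pathogenesis-related protein 1 (VIT_03s0088g00710) had 0.589, 0.267 and 0.801 CPM, against 4.91, 5.07 and 5.23 CPM (-3.18). Its ‘Nantaihutezao’ mean was 19.7 CPM at S10. Genes of NB-ARC resistance proteins, intracellular receptors, had 4 higher and 10 lower of 149 (9.4%, all genes 4.59%).

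NAC factors had 1 higher and 4 lower genes of 36 tested (13.9%, all genes 4.59%). There were 1 higher and 2 lower without replicate 1 of ‘Nantaihutezao’ S8. The higher one, NAC25-annotated VIT_00s0375g00040, had 9.70, 11.0 and 11.9 CPM in ‘Nantaihutezao’ S8, against 3.08, 3.88 and 2.97 CPM in ‘Summer Black’ S10 (1.71). MYB-type factors had 4 higher and 4 lower genes of 113 (7.08%, against 4.59% of all genes). Besides the MYB305-annotated gene, a gene annotated MYBPA1 (VIT_15s0046g00170), named for a regulator of proanthocyanidin synthesis, was higher, at 99.5, 104.9 and 103.5 CPM against 36.6, 33.3 and 34.9 CPM (1.56). ‘Summer Black’ had MYBPA1 at 92.4 CPM at S8 and 41.5 CPM at S9. Of 147 genes of hormone signal transduction, 6 were higher and 3 lower (6.12%, against 4.59% of all genes). Without replicate 1 or replicate 3 of ‘Nantaihutezao’ S8 there were 5 lower ones, without its replicate 2 there were 6, and without replicate 1 of ‘Summer Black’ S10 there were 7.

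Water channels were called in the higher direction. Of 17 aquaporins, 4 were higher and none lower (23.5%, all genes 4.59%), with a median log2 fold change of 0.63. TIP2-1 (VIT_09s0002g04020), a channel of the vacuole membrane, had 575.9, 552.8 and 593.3 CPM in ‘Nantaihutezao’ S8, against 249.4, 254.1 and 242.9 CPM in ‘Summer Black’ S10 (1.21, SE 0.04). Its mean in ‘Summer Black’ was 464.8 CPM at S8 and 335.8 CPM at S9, which lie below the bud sport's S8 libraries, and 656.1 CPM at S7. Of the light-harvesting antenna proteins, 3 were higher and none lower of 13 (23.1%, all genes 4.59%). At an FDR under 0.05 without the fold threshold, 10 were higher. The 3 called genes were LHCB6 (VIT_12s0055g01110), LHCA1 (VIT_13s0019g04140) and LHCA4 (VIT_17s0000g06350), all within the parent's course. In ‘Nantaihutezao’ S7 against ‘Summer Black’ S9 they were called higher too (1.18, 1.67 and 2.11). At equal samplings none was called higher. There LHCA1 was called lower at S7 (-2.23), LHCA4 at S5 (-1.36) and S7 (-1.64), and LHCB6 at none. Of 44 other photosynthesis genes, 2 were higher and none lower (4.55%, near the 4.59% of all genes). The counts became 1 higher without replicate 2 of ‘Nantaihutezao’ S8 and 3 higher and 2 lower without its replicate 3. Without replicate 3 of ‘Summer Black’ S10 they were 1 higher and 1 lower.

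Lists of primary metabolism were called at shares near that of all genes (4.59%), 4.17% in glycolysis and gluconeogenesis, 6.96% in starch and sucrose metabolism and 7.32% in sugar transporters. ADH1 (VIT_18s0001g15410), an alcohol dehydrogenase, had 98.9, 103.9 and 104.3 CPM in ‘Nantaihutezao’ S8, against 36.5, 33.7 and 34.4 CPM in ‘Summer Black’ S10 (1.56). Cytosolic glyceraldehyde-3-phosphate dehydrogenase (VIT_01s0010g02460), of glycolysis, had 448.1, 418.7 and 426.0 CPM, against 197.9, 194.7 and 203.4 CPM (1.12). ALDH3I1 (VIT_07s0031g02630), an aldehyde dehydrogenase, had 470.2, 495.0 and 476.6 CPM, against 234.6, 225.9 and 232.7 CPM (1.06), above all ‘Summer Black’ libraries. Of 96 genes of glycolysis and gluconeogenesis 4 were higher and none lower, of 115 of starch and sucrose metabolism 6 were higher and 2 lower, and of 41 sugar transporters 2 were higher and 1 lower. The medians of these lists were 0.09, -0.08 and -0.13. Without replicate 2 of ‘Nantaihutezao’ S8 there was 1 lower gene in glycolysis and 1 in starch and sucrose metabolism, and without its replicate 3 there were 2 lower sugar transporters.

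Genes of the ribosome had small differences, mostly of one sign. Of 259 tested, 1 was called lower (2 without replicate 1 or replicate 3 of ‘Nantaihutezao’ S8 or replicate 3 of ‘Summer Black’ S10), while 160 were higher and 3 lower at an FDR under 0.05 without the fold threshold, with a median log2 fold change of 0.22. The median over all genes was 0.00, and upper-quartile scaling moved it to 0.02. Oxidative phosphorylation had a like pattern, with 63 higher and 11 lower of 106 by the FDR alone and a median of 0.21. By the call 2 were higher and 4 lower (5.66%, near the 4.59% of all genes). Among its 4 genes called lower was a copper chaperone of cytochrome c oxidase (VIT_19s0014g02730), with 105.5, 117.9 and 106.3 CPM in ‘Nantaihutezao’ S8 against 253.2, 244.2 and 208.5 CPM in ‘Summer Black’ S10 (-1.10), below all ‘Summer Black’ libraries. The lower count was 2 without replicate 1 of either group and 6 without replicate 3 of ‘Nantaihutezao’ S8, and the higher count of 2 became 1 without that library or replicate 2 of ‘Summer Black’ S10.

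**Figure D5:**
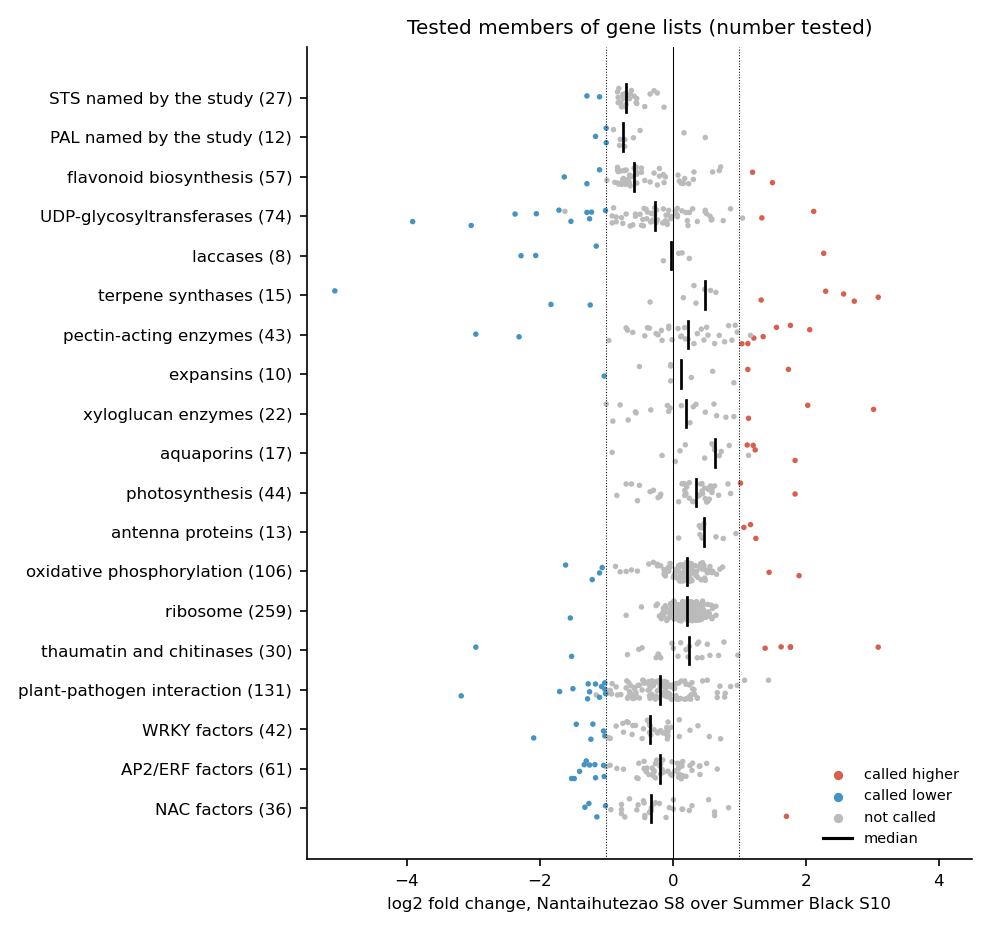
Log2 fold changes of the tested members of 19 gene lists (rows, number tested in brackets), ‘Nantaihutezao’ S8 over ‘Summer Black’ S10; each point is a gene, red called higher, blue called lower and grey not called, black bars are medians and dotted lines mark log2 fold changes of -1 and 1. The STS row lies wholly left of 0, with a median of -0.70, and the ribosome row has a median of 0.22.

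Read through the annotation columns of the table, calls were unevenly spread over the KOG classes. Secondary metabolism had the largest share among classes with at least 20 tested genes, with 9 higher and 17 lower of 225 (11.6%), followed by inorganic ion transport with 11 higher and 9 lower of 216 (9.26%), where 4.59% of all genes were called. Carbohydrate metabolism had 12 higher and none lower of 357 (3.36%), and signal transduction 8 higher and 29 lower of 747 (4.95%). These shares were near that of all genes. Translation had none past the fold threshold in edgeR among 482 genes, and 176 higher and 36 lower at an FDR under 0.05 alone. Of 82 KEGG terms with at least 20 tested genes, 29 had no call. The highest share was in pentose and glucuronate interconversions, a term that holds many pectin enzymes, with 6 higher and 1 lower of 41 (17.1%). Genes without a Swiss-Prot, Pfam or KEGG entry had 39 higher and 40 lower of 1780 (4.44%).

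Markers of tissues were read beside these results. The summed level of 20 seed storage and oil body genes was between 61.4 and 65.3 CPM in ‘Nantaihutezao’ S8 and between 40.7 and 44.8 CPM in ‘Summer Black’ S10, with 8 of the genes at 0 in the 6 libraries, among them the genes of legumin A, legumin B and an 11S globulin. Oleosin 1 (VIT_02s0234g00110) was higher, at 14.3, 12.7 and 15.7 CPM against 2.59, 2 and 3.56 CPM (2.38). It was the only one called higher of the 4 tested, and an oleosin GRP-17 gene (VIT_10s0042g00830) was called lower (-1.03). Another oleosin 1 gene, VIT_16s0013g00880, was not called (0.28). The largest part of the sum was a basic 7S globulin gene (VIT_07s0104g00180), with means of 46.5 against 36.7 CPM (0.34). The sum of 20 genes annotated as anthocyanidin 3-O-glucosyltransferase, the enzyme type that fixes skin pigments, overlapped between the groups. It was 642.0 to 693.6 CPM in ‘Nantaihutezao’ S8 and 645.8 to 691.4 CPM in ‘Summer Black’ S10, with 7 genes at 0. Its members went both ways. VIT_16s0039g02230, the largest of them, had 568.9, 555.2 and 598.4 CPM against 658.5, 612.6 and 645.4 CPM (-0.15). Of the 6 tested, VIT_04s0023g01290 was called higher (2.12) and VIT_03s0017g02120 lower (-1.71). The sum of 22 green tissue genes was 611.1 to 671.9 CPM in ‘Nantaihutezao’ S8 and 486.8 to 494.8 CPM in ‘Summer Black’ S10, with 3 genes at 0. The green tissue genes include the antenna proteins above, and the part of tissue make-up in any of the differences was not tested.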

How the data were processed

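RNA-Seq libraries were made from berries of both cultivars with a TruSeq kit and sequenced on a HiSeq X-ten. Alignment was by TopHat 2, and the authors deposited the number of reads of each gene as unnormalised counts. The authors also deposited FPKM values, computed with Cuffdiff (no version in the submitters' processing notes), which were not tested here. The columns of the authors' own comparisons (FDR, log2 fold change and direction by DESeq) were not used. All 36 count columns were matched to samples by name, and 0 per-sample columns were left over. The reference was the published Vitis vinifera genome, and its build number and the strand setting are not given in the sources used here.

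Genes with enough counts (filterByExpr, minimum count 10, minimum total 15) went into edgeR 4.0.16 (R 4.3.3), whose quasi-likelihood test was run on TMM-scaled counts of the libraries compared. The standard error is the log2 fold change over the square root of F. A fold over a group at 0 used 3 counts over the group as its floor. DESeq2 1.42.0, upper-quartile scaling, no filter, all 36 libraries in 1 fit, the replicate letter as a block, a test against the fold threshold (glmTreat) and leaving out each library were the alternatives. The code was tested on data with known changes. Tables and plots were made in Python 3.11.15.

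The groups and gene lists were chosen with earlier results of these data known. Genes were named by a rule: called, not overlapping and at a mean of at least 1 CPM, being the 10 highest and 10 lowest fold changes outside the parent's course, the 5 of highest mean level per direction, the called member of highest mean level per direction in each list, the 5 highest and 5 lowest of those called the same way in all 5 comparisons of other libraries, and the phenylpropanoid transcripts named by the study. The genes VIT_00s0386g00050, VIT_01s0150g00450, VIT_06s0004g06370, VIT_07s0031g01980, VIT_08s0007g08920, VIT_08s0058g01210, VIT_12s0028g02830, VIT_12s0134g00030, VIT_18s0164g00100 and VIT_19s0177g00070 fall outside it and were chosen after their values were seen. The paper calls the replicates biological, but no source says whether they came from separate vines. The p-values therefore measure the spread between these libraries, and how far that spread is technical is not known.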

Additional observations from a re-analysis of the deposited data

How the results depend on the processing

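Testing against a fold of 2 itself (glmTreat) gave 160 genes, 96 higher and 64 lower, against S10, and 1789 against S6, 1189 against S7, 337 against S8 and 119 against S9. Under it the genes called the same way again, out of 260 in the standard test, were 65 for ‘Nantaihutezao’ S7 against ‘Summer Black’ S9. They were 44 of 211 at S5, 33 of 125 at S6, 53 of 184 at S7 and 53 of 186 at S9. Requiring a 2-fold margin left 39 higher and 11 lower genes outside the parent's course. Leaving out 1 library gave 672 to 705 calls, 299 to 351 higher and 325 to 395 lower. The calls were then 4995 to 5082 against S5, 2801 to 2840 against S6, 2128 to 2195 against S7, 915 to 975 against S8 and 491 to 523 against S9. Outside the course there were 89 to 95 higher and 75 to 93 lower genes. Called again were 249 to 266 for the shifted comparison, 192 to 212 at S5, 114 to 122 at S6, 171 to 185 at S7 and 174 to 184 at S9.

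The letters a to c did not pair the libraries: the deviations of same-letter libraries correlated at -0.03, 0.06 and -0.02, and those of other pairs at -0.04 to 0.06. With the replicate block, 317 genes were higher and 362 lower. DESeq2 called 306 higher and 331 lower, upper-quartile scaling 326 and 355, no filter 363 and 400, and all 36 libraries in 1 fit 361 and 415. Of 94 called genes named by the rule, 51 were called under all 12 alternatives, 80 under the 11 other than glmTreat, and 0 reversed. PAL had 1 lower gene under upper-quartile scaling, no filter, all 36 libraries or the replicate block. MYB-type factors had 9 higher and 6 lower genes with all 36 libraries, and NB-ARC genes 2 and 7 by DESeq2. With all 36 libraries 885 genes were called against S9, more than the 776 against S10. Genes at a few counts per library are limited by depth.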
